A study of Homo sapiens with 18 samples.

Results

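The 50 genes described here carry a cell through mitosis: the proliferation markers and the regulator FOXM1, the mitotic cyclins with CDK1 and its CDC25 phosphatases, the mitotic kinases and chromosomal passengers, the spindle checkpoint, the kinetochore, the mitotic kinesins, the spindle midzone and cytokinesis proteins, and the anaphase and cohesion regulators. They were taken by name from the 42141 genes in the expression tables, and all 50 were found and passed the filter on low counts. The names were set by function and not by a measured value, although earlier results of these data were known when they were chosen.

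Transcripts were counted in acini formed by MCF-10A.B2 cells, a line derived from MCF-10A human mammary epithelial cells, which are not transformed. The B2 line carries a chimeric ErbB2 receptor that a synthetic homodimerizer brings together, so that ErbB2 signaling can be switched on without a growth factor. Acini were grown on growth factor-reduced Matrigel for 21 days, EGF was withdrawn from all groups on day 7, and the treatments ran for the remaining 14 days. The 6 groups, with 3 libraries each, were JNK knockout (JNKKO) acini given ethanol as control, B/B homodimerizer (called dimerizer below) or dimerizer with TGF-β1, and WT acini given the same 3 treatments. The labels do not say which JNK genes were targeted or whether the JNKKO line is 1 clone. Nor do they say that a group's libraries are from separate cultures, and each p-value therefore reflects the spread among these libraries, which may be technical.

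Mitotic genes are switched on together late in the cell cycle. In resting and early cycling cells the DREAM complex, built on the MuvB core, holds them off; B-MYB and then FOXM1 join MuvB to activate them toward mitosis. MuvB binds a short element near the start site, the cell cycle genes homology region (CHR), and the factor NF-Y binds CCAAT boxes just upstream of it. In mammary epithelium their transcripts are used as a measure of how many cells are cycling.

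Promoter windows from RefSeq (build GRCh38.p14, 250 bases before to 50 after a start) were matched by symbol for 43 of the 50 genes, with 53 windows among them. AURKA, UBE2C, FOXM1, BIRC5, TTK, BUB3 and TPX2 were not matched. Stretches before the start of 6 genes are shown. Of these, 5 had a Pearson r of at least 0.9 with the mean of the other 49 genes over the 18 libraries. INCENP had the lowest r of the 50 genes, at 0.403. Capitals mark TTTGAA or TTTAAA, the CHR-type letters, and CCAAT, each searched on both strands (so TTCAAA and ATTGG are marked too). Bases inside an exon of GENCODE 29 were left off, which shortens the stretches of CDC20 and INCENP. In MKI67 (chr10:128126424-128126543, minus strand) the last TTTGAA and an ATTGG share bases and are marked as 1 run. The other stretches are CDC20 (chr1:43358861-43358954, plus strand), CENPF (chr1:214603075-214603194, plus strand), KIF11 (chr10:92593010-92593129, plus strand), ESPL1 (chr12:53268179-53268298, plus strand) and INCENP (chr11:62123891-62123972, plus strand).
MKI67: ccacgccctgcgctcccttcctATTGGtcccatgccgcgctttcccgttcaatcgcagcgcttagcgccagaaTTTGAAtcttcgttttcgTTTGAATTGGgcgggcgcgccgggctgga
CDC20: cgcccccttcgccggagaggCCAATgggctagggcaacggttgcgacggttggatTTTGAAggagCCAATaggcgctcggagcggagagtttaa
CENPF: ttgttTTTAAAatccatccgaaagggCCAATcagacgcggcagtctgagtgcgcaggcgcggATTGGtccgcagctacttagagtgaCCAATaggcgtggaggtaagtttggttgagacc
KIF11: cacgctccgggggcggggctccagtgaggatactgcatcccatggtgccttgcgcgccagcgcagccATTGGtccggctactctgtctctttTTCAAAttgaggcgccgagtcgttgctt
ESPL1: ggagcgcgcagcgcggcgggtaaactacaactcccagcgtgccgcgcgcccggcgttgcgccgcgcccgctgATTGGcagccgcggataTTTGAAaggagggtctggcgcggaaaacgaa
INCENP: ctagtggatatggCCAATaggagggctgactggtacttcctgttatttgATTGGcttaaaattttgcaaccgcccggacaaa

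At least 1 CHR-type match lay in the windows of 37 of the 43 genes (86.0%), against 22.1% of the 10651 tested genes with a window. At least 1 CCAAT box lay in 34 of the 43 (79.1%), against 42.8% of those 10651 genes. Both stood in the same window in 32 of 53 windows (60.4%), against 6.85% of the 15595 windows of tested genes and 9.27% of all 35116 windows. BUB1, CCNA2, CDCA5, AURKB, SPC24 and CENPI had no CHR-type match in their windows. INCENP had 1 CHR-type match and 3 CCAAT boxes in its whole window, the CHR-type match 10 bases before the start and so beyond the stretch printed. CDC25B, which has 4 annotated windows, held 1 CHR-type match in total, in window 4 and after the start. A match describes the letters in a window and not a bound site.

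**Figure D1:**
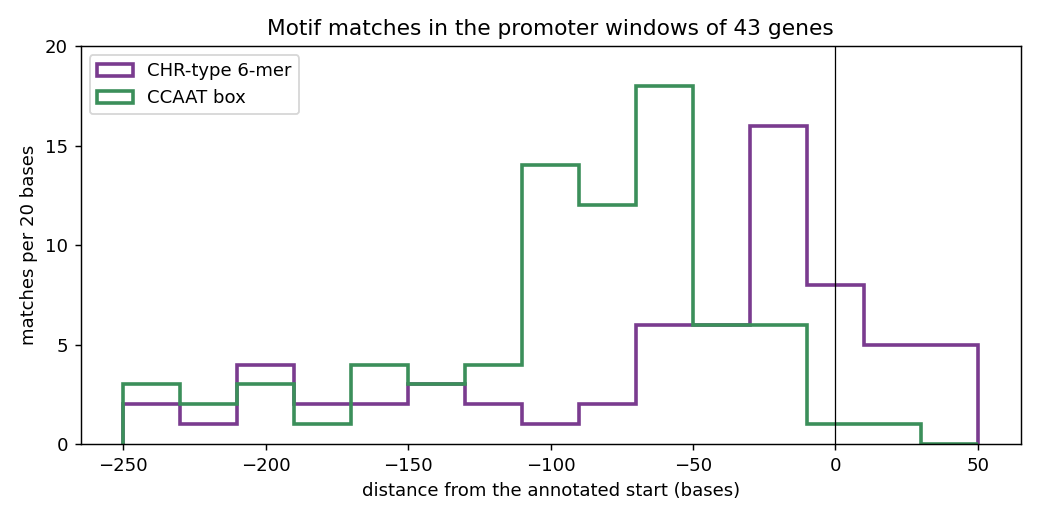
Number of motif matches per 20 bases (vertical axis) against distance from the annotated start in bases (horizontal axis), over the 53 promoter windows of 43 genes; the purple line is the CHR-type letters and the green line the CCAAT box, both on either strand. Of 65 CHR-type matches 40 lie within 50 bases of the start, and of 78 CCAAT boxes 44 lie between 110 and 51 bases before it.

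Each library held between 24243537 and 34499651 expected counts. The JNK genes were checked first: MAPK9 (JNK2) lay between 42.1 and 53.9 CPM (counts scaled to a common library size) in the 9 JNKKO libraries and between 57.1 and 68.4 CPM in the 9 WT libraries, with no overlap. MAPK8 (JNK1) lay between 25.5 and 34.9 CPM in JNKKO libraries and between 22.8 and 35.1 CPM in WT libraries, which overlapped. By treatment MAPK8 differed in opposite directions, at a JNKKO minus WT log2 difference of 0.47 in control (adjusted p = 5.5e-08, edgeR), -0.02 with dimerizer (adjusted p = 0.811) and -0.32 with dimerizer and TGF-β1 (adjusted p = 1.34e-05). Since the sources used here do not give the deleted sequence, these levels do not check the deletion. The share of counts from mitochondrially encoded genes differed between groups, with means of 10.8% in JNKKO control, 8.90% in JNKKO dimerizer and 5.38% in JNKKO dimerizer with TGF-β1 acini, and 15.2%, 9.0% and 9.19% in the WT acini given the same treatments. All 10 epithelial markers averaged at least 1 TPM (expression scaled to transcript length) in every group, while the 7 fibroblast markers summed to between 11.8 and 23.8 TPM in control and dimerizer libraries and between 115 and 208 TPM in those given TGF-β1, where 3 of the 7 averaged at least 1 TPM in JNKKO and 2 in WT acini. The immune and endothelial marker lists each summed to at most 9.71 TPM in any library. WT control replicate 2 was the highest of its group for 47 of the 50 genes and WT control replicate 1 the lowest for 44, and JNKKO dimerizer replicate 2 the lowest of its group for 44. WT dimerizer replicate 2 was likewise the highest of its group for 47. The genotype tag of WT dimerizer with TGF-β1 replicate 3 contradicts its title, by which it was grouped.

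Across the 6 groups most of the genes formed 1 common pattern, and the median differences with each treatment had opposite signs in the 2 genotypes. They were high in JNKKO control acini and lower once JNKKO acini received dimerizer, where their summed share was near that of WT control. With TGF-β1 25 of the 50 rose and 2 fell in JNKKO acini, while 30.5% of all genes rose and 30.3% fell. That count was 14 that rose without JNKKO dimerizer replicate 2. In WT acini they were intermediate in control, high with dimerizer and lowest with dimerizer and TGF-β1. The 50 genes together held 0.153% ± 0.00833 of all counts in JNKKO control, 0.1005% ± 0.00640 in JNKKO dimerizer and 0.109% ± 0.000612 in JNKKO dimerizer with TGF-β1 acini (SD, n = 3 each). In WT acini the share was 0.0969% ± 0.0131 in control, 0.146% ± 0.0135 with dimerizer and 0.0695% ± 0.000786 with dimerizer and TGF-β1 (SD, n = 3 each). JNKKO control acini had the highest mean CPM for 40 of the 50 genes, and WT dimerizer with TGF-β1 acini the lowest for 46. In bulk RNA, fewer cycling cells and less transcript per cycling cell cannot be told apart.

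**Figure D2:**
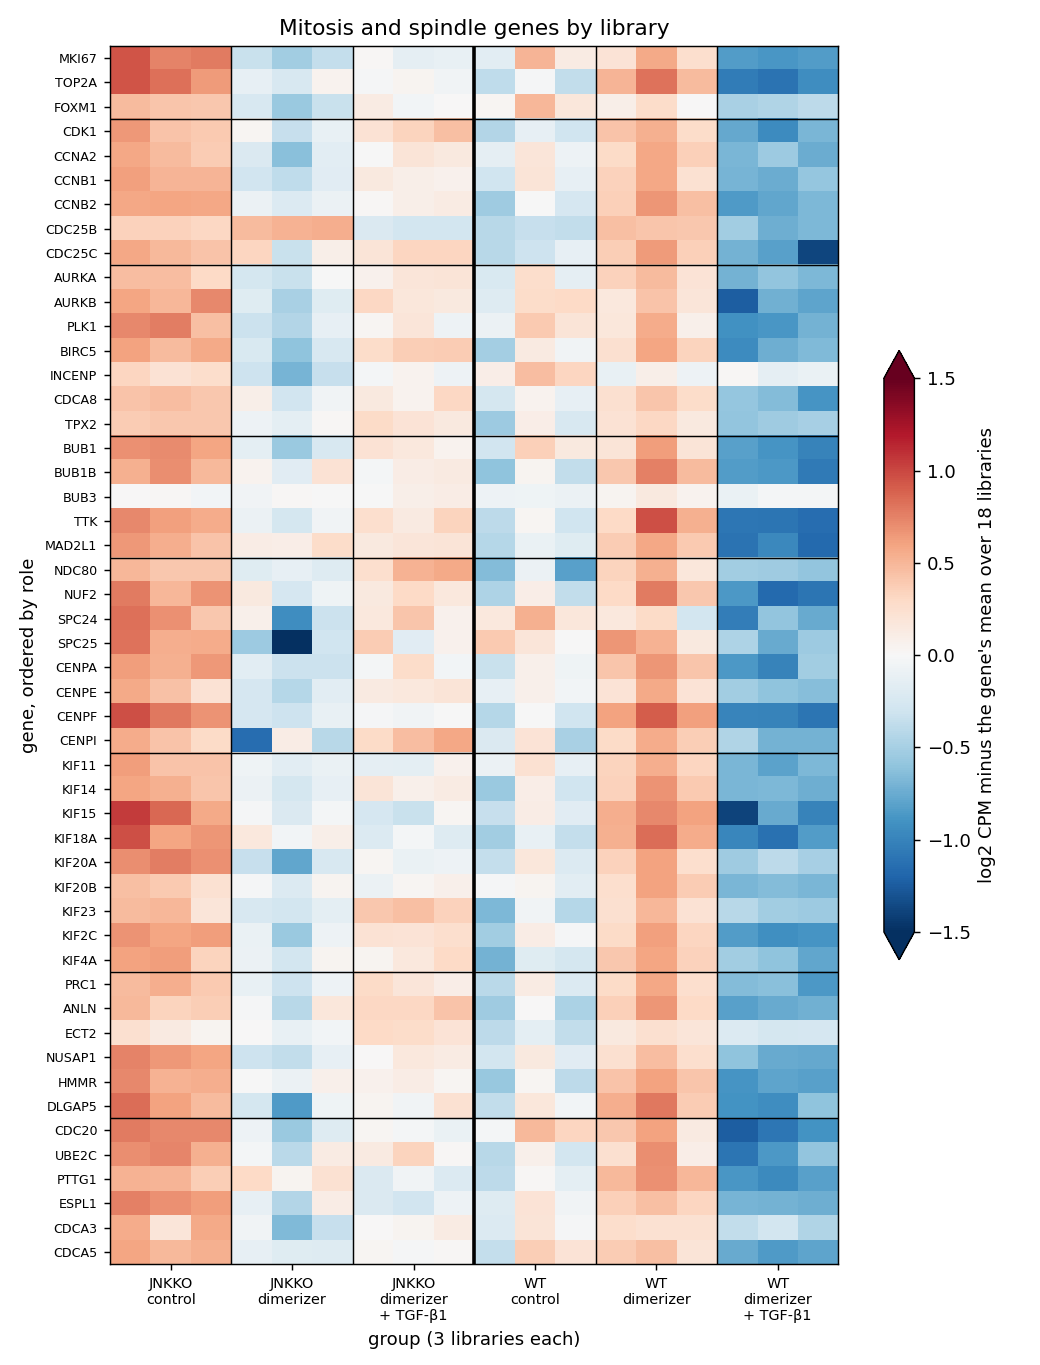
Log2 CPM of each of the 50 genes (rows, ordered by role with lines between roles) in each of the 18 libraries (columns, 3 per group, JNKKO groups on the left and WT groups on the right), as the difference from the gene's mean over 18 libraries; red is above and blue below the mean, and colors stop at 1.5. Most rows are red in JNKKO control and WT dimerizer libraries and blue in WT dimerizer with TGF-β1 libraries, where 46 genes have their lowest group mean; INCENP, BUB3, SPC25 and ECT2 have theirs in another group.

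By level per transcript length, BUB3, PTTG1 and CDC25B were the most abundant, at group means of 85.0 to 120.2 TPM for BUB3, 43.5 to 105 TPM for PTTG1 and 44.5 to 87.2 TPM for CDC25B. CENPI and KIF15 were the scarcest, averaging 1.03 and 1.18 TPM over the 18 libraries. Counts per library ran from 18 to 81 for SPC25 and from 2657 to 6882 for CDC25B. Differences below are log2 differences of CPM from edgeR's quasi-likelihood test, with its standard error after ± and a Benjamini-Hochberg adjusted p over all 16911 genes tested, and a gene is said to rise or fall where the adjusted p was under 0.05. Several members overlap other genes on the genome, and since the strand setting of the counting is not given, their values carry that uncertainty, among them FOXM1 (with RHNO1 and ITFG2), CDC25C (with FAM53C), KIF20A (with BRD8 and CDC23), KIF4A (with PDZD11), KIF15 (with TMEM42), CENPA (with SLC35F6), CCNA2 (with EXOSC9), ANLN (with KIAA0895), KIF18A (with METTL15) and NUF2 (with RGS5).

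MKI67 encodes the Ki-67 antigen, which coats mitotic chromosomes. MKI67 was at 101, 88.6 and 90.5 CPM in JNKKO control acini, 41.9, 36.7 and 41.3 CPM in JNKKO dimerizer acini and 53.4, 48.1 and 48.9 CPM in JNKKO acini given dimerizer with TGF-β1. In WT it was at 47.3, 74.8 and 57.5 CPM in WT control acini, 60.96, 78.2 and 62.8 CPM in WT dimerizer acini and 29.5, 28.7 and 29.5 CPM in WT acini given dimerizer with TGF-β1. The 3 JNKKO control libraries were the highest of the 18 and the 3 WT libraries with TGF-β1 the lowest, while WT control and WT dimerizer libraries overlapped. TOP2A, the topoisomerase that untangles sister chromatids, was at 117, 107 and 94.5 CPM in JNKKO control acini, 55.99, 51.6 and 62.98 CPM in JNKKO dimerizer acini and 60.1, 62.4 and 58.7 CPM in JNKKO acini given dimerizer with TGF-β1. WT acini had TOP2A at 46.6, 60.03 and 46.97 CPM in WT control acini, 86.7, 107 and 84.7 CPM in WT dimerizer acini and 29.4, 28.1 and 31.8 CPM in WT acini given dimerizer with TGF-β1. JNKKO control and WT dimerizer libraries overlapped at the top, and no WT group overlapped another. FOXM1, the transcription factor that activates mitotic genes with MuvB, moved over a narrower range. Its values were 23.3, 22.3 and 22.2 CPM in JNKKO control acini, 14.1, 11.3 and 13.3 CPM in JNKKO dimerizer acini and 18.2, 16.2 and 16.8 CPM in JNKKO acini given dimerizer with TGF-β1. Those in WT were 17.1, 23.7 and 18.8 CPM in WT control acini, 17.8, 20.2 and 16.9 CPM in WT dimerizer acini and 11.97, 12.2 and 12.8 CPM in WT acini given dimerizer with TGF-β1. The JNKKO groups did not overlap one another, whereas WT control and WT dimerizer libraries did.

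Among the cyclins and their kinase, CCNB1 (cyclin B1, the CDK1 partner that drives entry into mitosis) followed the other 49 genes most closely, with a Pearson r of 0.987 between its log2 CPM and their mean over 18 libraries. CCNB1 stood at 50.6, 46.8 and 47.01 CPM in JNKKO control acini, 27.1, 25.2 and 29.3 CPM in JNKKO dimerizer acini and 36.4, 35.2 and 34.5 CPM in JNKKO acini given dimerizer with TGF-β1. In WT it stood at 26.9, 37.6 and 30.2 CPM in WT control acini, 42.03, 49.4 and 38.7 CPM in WT dimerizer acini and 20.3, 19.7 and 22.00 CPM in WT acini given dimerizer with TGF-β1. Within each genotype no group overlapped another. CDK1 itself was at 27.7, 23.8 and 23.4 CPM in JNKKO control acini, 18.1, 13.9 and 16.5 CPM in JNKKO dimerizer acini and 20.7, 22.3 and 24.2 CPM in JNKKO acini given dimerizer with TGF-β1. WT libraries had CDK1 at 13.05, 16.3 and 14.4 CPM in WT control acini, 23.8, 25.7 and 21.5 CPM in WT dimerizer acini and 10.4, 9.25 and 11.02 CPM in WT acini given dimerizer with TGF-β1. Dimerizer acini held the lowest JNKKO values and the highest WT values, without overlap in either genotype. CDC25B, a phosphatase that removes the inhibitory phosphates of CDK1, was at 185, 186 and 181 CPM in JNKKO control acini, 202, 210.2 and 213 CPM in JNKKO dimerizer acini and 126, 120.3 and 120.3 CPM in JNKKO acini given dimerizer with TGF-β1. In WT acini CDC25B was at 109, 115 and 113 CPM in WT control acini, 200.3, 195 and 193 CPM in WT dimerizer acini and 102, 88.1 and 91.2 CPM in WT acini given dimerizer with TGF-β1. It was highest with dimerizer in both genotypes. JNKKO dimerizer acini, which were below JNKKO control for nearly every other gene, thus held its highest CPM of the 18 libraries. By TPM the CDC25B mean was instead higher in WT dimerizer acini (87.2) than in JNKKO dimerizer acini (83.4).

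Of the kinases, PLK1, which acts on centrosomes and kinetochores, was at 27.7, 28.6 and 22.9 CPM in JNKKO control acini, 13.5, 12.4 and 15.4 CPM in JNKKO dimerizer acini and 17.2, 19.1 and 16.00 CPM in JNKKO acini given dimerizer with TGF-β1. WT acini had 15.8, 22.1 and 19.2 CPM in WT control acini, 18.96, 24.7 and 17.8 CPM in WT dimerizer acini and 8.98, 9.18 and 10.3 CPM in WT acini given dimerizer with TGF-β1. The 3 JNKKO groups were apart from one another, and WT control and WT dimerizer libraries overlapped. AURKB, the kinase of the chromosomal passenger complex, had the same layout at a lower level. AURKB values were 7.04, 6.64 and 7.74 CPM in JNKKO control acini, 4.14, 3.35 and 4.12 CPM in JNKKO dimerizer acini and 5.81, 5.27 and 5.18 CPM in JNKKO acini given dimerizer with TGF-β1. In WT they were 4.10, 5.68 and 5.78 CPM in WT control acini, 5.25, 6.33 and 5.34 CPM in WT dimerizer acini and 1.99, 2.85 and 2.72 CPM in WT acini given dimerizer with TGF-β1. INCENP, the scaffold that holds AURKB in that complex, was laid out otherwise, and had the lowest r with the other 49 genes (0.403). INCENP stood at 27.1, 25.2 and 26.1 CPM in JNKKO control acini, 17.5, 13.3 and 16.99 CPM in JNKKO dimerizer acini and 21.2, 22.5 and 20.5 CPM in JNKKO acini given dimerizer with TGF-β1. In WT acini INCENP stood at 23.1, 29.8 and 27.1 CPM in WT control acini, 19.95, 23.05 and 20.6 CPM in WT dimerizer acini and 21.97, 19.8 and 20.1 CPM in WT acini given dimerizer with TGF-β1. It was lowest with dimerizer in JNKKO acini, while the WT dimerizer libraries overlapped those with TGF-β1 and lay just below WT control.

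In the spindle checkpoint, TTK (the MPS1 kinase that starts the signal) was at 10.7, 9.92 and 9.54 CPM in JNKKO control acini, 6.11, 5.40 and 6.24 CPM in JNKKO dimerizer acini and 7.74, 7.14 and 8.20 CPM in JNKKO acini given dimerizer with TGF-β1. In WT it was at 4.95, 6.65 and 5.27 CPM in WT control acini, 7.97, 12.7 and 9.41 CPM in WT dimerizer acini and 3.05, 3.05 and 2.93 CPM in WT acini given dimerizer with TGF-β1. No groups overlapped within a genotype, and the 3 WT libraries with TGF-β1 were the lowest of the 18. BUB3, which recruits BUB1 and BUBR1 to unattached kinetochores and is expressed through the cell cycle, stayed within a narrow range. BUB3 was at 116, 118 and 113 CPM in JNKKO control acini, 112, 118 and 115 CPM in JNKKO dimerizer acini and 116, 124 and 126 CPM in JNKKO acini given dimerizer with TGF-β1. WT acini had BUB3 at 110.4, 111 and 109 CPM in WT control acini, 119.95, 129 and 120.3 CPM in WT dimerizer acini and 108, 114 and 114 CPM in WT acini given dimerizer with TGF-β1. The 3 JNKKO groups overlapped, and WT dimerizer libraries lay above the other WT libraries.

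**Figure D3:**
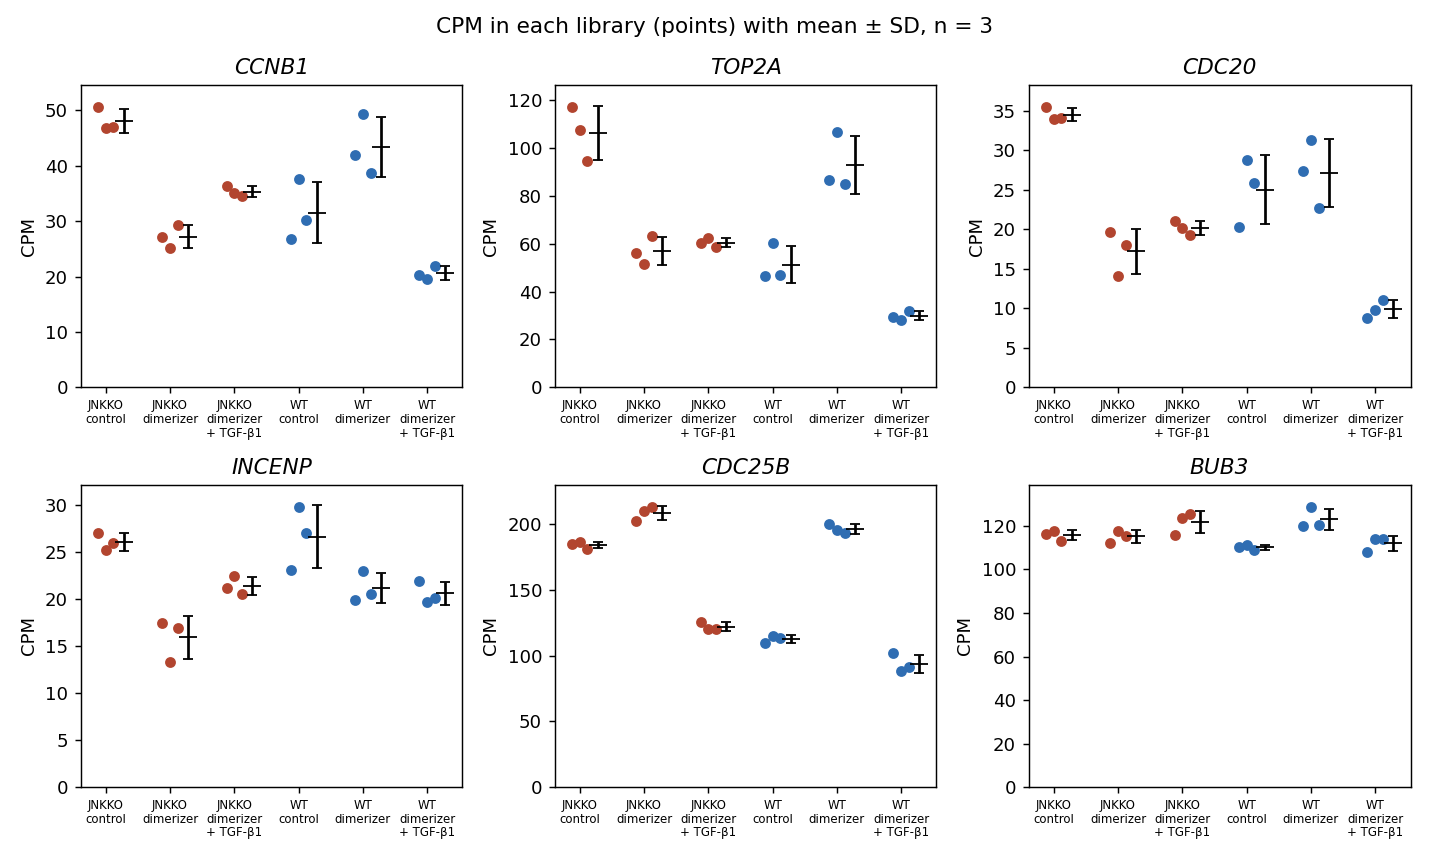
CPM (vertical axes, starting at 0) of CCNB1, TOP2A, CDC20, INCENP, CDC25B and BUB3 in the 6 groups (horizontal axes, JNKKO groups in red on the left and WT groups in blue on the right); points are libraries and the black bars the mean ± SD of 3. CCNB1, TOP2A and CDC20 are high in JNKKO control and low in WT dimerizer with TGF-β1 acini, CDC25B is highest with dimerizer in both genotypes, INCENP is lowest in JNKKO dimerizer acini and BUB3 stays between 108 and 129 CPM.

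At the kinetochore, CENPF, a large protein that joins the outer kinetochore in late G2, had one of the widest ranges of the 50. CENPF was at 149, 132 and 122 CPM in JNKKO control acini, 64.2, 61.4 and 70.7 CPM in JNKKO dimerizer acini and 75.4, 73.4 and 76.2 CPM in JNKKO acini given dimerizer with TGF-β1. Its WT values were 56.6, 76.2 and 62.1 CPM in WT control acini, 116, 144 and 117 CPM in WT dimerizer acini and 38.4, 38.1 and 35.7 CPM in WT acini given dimerizer with TGF-β1. No groups overlapped within a genotype. SPC25, a subunit of the NDC80 complex that binds microtubules, had the fewest counts of the 50, between 18 and 81 per library. SPC25 was at 2.85, 2.37 and 2.38 CPM in JNKKO control acini, 1.11, 0.575 and 1.32 CPM in JNKKO dimerizer acini and 2.10, 1.44 and 1.69 CPM in JNKKO acini given dimerizer with TGF-β1. WT acini had SPC25 at 2.13, 1.84 and 1.61 CPM in WT control acini, 2.56, 2.33 and 1.80 CPM in WT dimerizer acini and 1.18, 0.961 and 1.11 CPM in WT acini given dimerizer with TGF-β1. The JNKKO groups did not overlap, and WT control and WT dimerizer libraries did.

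Among the kinesins, KIF18A, which dampens chromosome oscillations at metaphase, was at 9.58, 7.41 and 7.78 CPM in JNKKO control acini, 5.47, 4.76 and 5.21 CPM in JNKKO dimerizer acini and 4.24, 4.80 and 4.28 CPM in JNKKO acini given dimerizer with TGF-β1. Its values in WT were 3.43, 4.55 and 3.83 CPM in WT control acini, 7.07, 8.75 and 7.22 CPM in WT dimerizer acini and 2.48, 2.25 and 2.75 CPM in WT acini given dimerizer with TGF-β1. JNKKO dimerizer libraries with and without TGF-β1 overlapped, and the 3 WT groups were apart. KIF11, the kinesin that pushes spindle poles apart, was at 31.1, 27.01 and 27.05 CPM in JNKKO control acini, 19.3, 18.1 and 18.9 CPM in JNKKO dimerizer acini and 18.4, 18.2 and 21.1 CPM in JNKKO acini given dimerizer with TGF-β1. In WT acini KIF11 was at 18.98, 23.6 and 18.4 CPM in WT control acini, 25.3, 29.3 and 25.3 CPM in WT dimerizer acini and 12.5, 11.6 and 12.7 CPM in WT acini given dimerizer with TGF-β1. Here too TGF-β1 left the JNKKO dimerizer libraries overlapping, and separated the WT ones.

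ECT2, the exchange factor that activates RhoA at the cleavage furrow, fell least of the 6 spindle and cytokinesis genes with dimerizer in JNKKO acini. It also fell least of them with TGF-β1 in WT acini. ECT2 stood at 34.2, 31.9 and 29.8 CPM in JNKKO control acini, 29.1, 26.9 and 28.1 CPM in JNKKO dimerizer acini and 35.6, 35.2 and 33.5 CPM in JNKKO acini given dimerizer with TGF-β1. The WT values of ECT2 were 22.1, 26.1 and 22.4 CPM in WT control acini, 32.01, 34.3 and 32.9 CPM in WT dimerizer acini and 25.2, 24.1 and 24.3 CPM in WT acini given dimerizer with TGF-β1. JNKKO control and JNKKO TGF-β1 libraries overlapped, as did WT control and WT TGF-β1 libraries. CDC20, the activator of the anaphase-promoting complex, was at 35.4, 33.97 and 34.1 CPM in JNKKO control acini, 19.6, 14.1 and 17.99 CPM in JNKKO dimerizer acini and 21.05, 20.2 and 19.3 CPM in JNKKO acini given dimerizer with TGF-β1. WT acini had CDC20 at 20.3, 28.8 and 25.9 CPM in WT control acini, 27.4, 31.3 and 22.7 CPM in WT dimerizer acini and 8.79, 9.75 and 11.1 CPM in WT acini given dimerizer with TGF-β1. JNKKO dimerizer libraries overlapped those with TGF-β1, and WT control libraries overlapped WT dimerizer. PTTG1 (securin, the inhibitor of separase) was at 40.9, 40.4 and 36.7 CPM in JNKKO control acini, 35.1, 29.3 and 33.3 CPM in JNKKO dimerizer acini and 24.6, 27.6 and 24.7 CPM in JNKKO acini given dimerizer with TGF-β1. In WT it was at 21.7, 28.8 and 25.7 CPM in WT control acini, 40.01, 46.00 and 40.3 CPM in WT dimerizer acini and 15.5, 14.7 and 16.3 CPM in WT acini given dimerizer with TGF-β1. The 3 groups were apart within each genotype, and PTTG1 was lowest with TGF-β1 in both.

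In JNKKO acini, dimerizer lowered almost the whole set. Against JNKKO control, 48 of the 50 genes fell and 1 rose, while 17.9% of all genes tested fell and 22.5% rose. The median log2 difference was -0.71 over the 50 genes and 0.01 over all genes. All 3 markers and regulators fell, with MKI67 at -1.23 ± 0.14 (adjusted p = 1.37e-05), TOP2A at -0.90 ± 0.12 (adjusted p = 4.12e-05) and FOXM1 at -0.82 ± 0.10 (adjusted p = 5.16e-07). Of the 6 cyclin and CDK genes 5 fell, among them CCNB1 at -0.82 ± 0.11 and CDK1 at -0.64 ± 0.10, and CDC25B rose by 0.18 ± 0.04 (adjusted p = 0.000727). All 7 kinase and passenger genes fell, from -0.46 ± 0.11 for TPX2, which activates AURKA on the spindle, to -0.94 ± 0.15 for PLK1. INCENP was among them at -0.72 ± 0.09 (adjusted p = 1.64e-06).

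Of the 5 checkpoint genes 4 fell, with BUB1, the kinase that marks inner centromeres, at -0.98 ± 0.14 (adjusted p = 2.21e-05) and TTK at -0.77 ± 0.13, and BUB3 did not pass the test (-0.01 ± 0.04, adjusted p = 0.899). All 8 kinetochore genes fell, SPC25 by most of the 50 at -1.35 ± 0.23 (adjusted p = 2.83e-05) and CENPF at -1.04 ± 0.11. All 9 kinesins fell, led by KIF20A, which works at the cytokinesis midzone, at -1.16 ± 0.13 (adjusted p = 1.91e-06). All 6 spindle and cytokinesis genes fell, from -0.19 ± 0.06 for ECT2 to -1.01 ± 0.18 for DLGAP5, a microtubule-bundling protein of the spindle. All 6 anaphase and cohesion genes fell, with CDC20 at -1.01 ± 0.15 (adjusted p = 8.03e-05) and PTTG1 at -0.28 ± 0.09 (adjusted p = 0.0158). The PTTG1 call was lost, at adjusted p = 0.0639, 0.0572 and 0.0903, without JNKKO control replicate 1, without JNKKO control replicate 2 and without JNKKO dimerizer replicate 2. The mitochondrial share was also lower in JNKKO dimerizer acini (8.90%) than in control (10.8%), and with those genes left out of the library sizes again 48 fell and 1 rose. On log2(TPM + 1) with limma, where 19% of all genes fell and 16.6% rose, 49 of the 50 fell, BUB3 among them, and 0 rose, since CDC25B did not pass there.

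In WT acini the same agent moved the set upward. Against WT control, 39 of the 50 genes rose and 1 fell, while 30.3% of all genes rose and 25.6% fell. Over the 50 genes the median log2 difference was 0.52, and over all genes 0.03. Of the markers, TOP2A rose by 0.86 ± 0.12 (adjusted p = 3.66e-05), while MKI67 at 0.17 ± 0.14 (adjusted p = 0.321) and FOXM1 at -0.12 ± 0.09 (adjusted p = 0.293) did not pass. All 6 cyclin and CDK genes rose, with CDK1 at 0.70 ± 0.10, CCNB1 at 0.46 ± 0.11 (adjusted p = 0.00183) and CDC25B at 0.80 ± 0.04 (adjusted p = 9.91e-16). Of the 7 kinase and passenger genes 4 rose, PLK1 (0.11 ± 0.14, adjusted p = 0.543) and AURKB (0.12 ± 0.13, adjusted p = 0.443) did not pass, and INCENP was the 1 gene that fell, at -0.33 ± 0.09 (adjusted p = 0.00286).

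Of the 5 checkpoint genes 4 rose, with TTK at 0.84 ± 0.13 (adjusted p = 3.91e-06), BUB1B, the BUBR1 subunit of the mitotic checkpoint complex, at 0.84 ± 0.13 and BUB3 at 0.16 ± 0.04 (adjusted p = 0.001), and BUB1 at 0.26 ± 0.14 (adjusted p = 0.122) did not pass. Of the 8 kinetochore genes 6 rose, led by CENPF at 0.95 ± 0.11 (adjusted p = 6.83e-06), and SPC24 (-0.22 ± 0.19) and SPC25 (0.25 ± 0.21) did not pass. All 9 kinesins rose, KIF18A by most of the 50 at 0.97 ± 0.12 (adjusted p = 1.36e-07). All 6 spindle and cytokinesis genes rose, HMMR, a microtubule-associated hyaluronan receptor, by 0.78 ± 0.10. Of the 6 anaphase and cohesion genes 3 rose, PTTG1 at 0.73 ± 0.09 (adjusted p = 6.19e-07), the separase gene ESPL1 at 0.38 ± 0.10 (adjusted p = 0.00233) and the ubiquitin-conjugating enzyme UBE2C at 0.56 ± 0.17 (adjusted p = 0.0123), and CDC20 (0.12 ± 0.14), CDCA3 (0.24 ± 0.14) and CDCA5 (0.24 ± 0.11) did not pass. The spread of WT control bears on several of these genes. Without WT control replicate 2, MKI67 was at 0.36 (adjusted p = 0.0132) and BUB1 at 0.41 (adjusted p = 0.0149). Without WT control replicate 1, FOXM1 fell at -0.22 (adjusted p = 0.0493), which makes 2 genes that fell. The mitochondrial share was 9.0% in WT dimerizer acini and 15.2% in WT control, and with those genes left out the counts were again 39 and 1. On log2(TPM + 1), where 37% of all genes rose and 16.6% fell, 41 of the 50 rose and 1 fell.

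The interaction tests whether the dimerizer difference itself differed between genotypes. All 50 genes passed, each with a lower dimerizer difference in JNKKO than in WT acini, while 21.2% of all genes passed in that direction and 21.4% in the other. The interaction (the JNKKO difference minus the WT difference) had a median of -1.26 over the 50 genes and 0.01 over all genes. It was -1.99 ± 0.16 (adjusted p = 2.96e-07) for CENPF, -1.76 ± 0.17 (adjusted p = 1.94e-06) for TOP2A and -1.68 ± 0.18 (adjusted p = 1.14e-06) for KIF20A. KIF15, which backs up KIF11, was at -1.68 ± 0.21, DLGAP5 at -1.66 ± 0.25 and KIF18A at -1.65 ± 0.17. Genes without a called WT change were included, such as MKI67 at -1.40 ± 0.20 (adjusted p = 7.73e-05) and FOXM1 at -0.70 ± 0.14 (adjusted p = 0.000228). CDC25B, which rose in both genotypes, passed at -0.62 ± 0.06 (adjusted p = 9.13e-10), INCENP, which fell in both, at -0.39 ± 0.13 (adjusted p = 0.0175), and BUB3 had the smallest value at -0.16 ± 0.06 (adjusted p = 0.0163). Leaving out 1 library at a time left between 47 and 50 genes called.

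**Figure D4:**
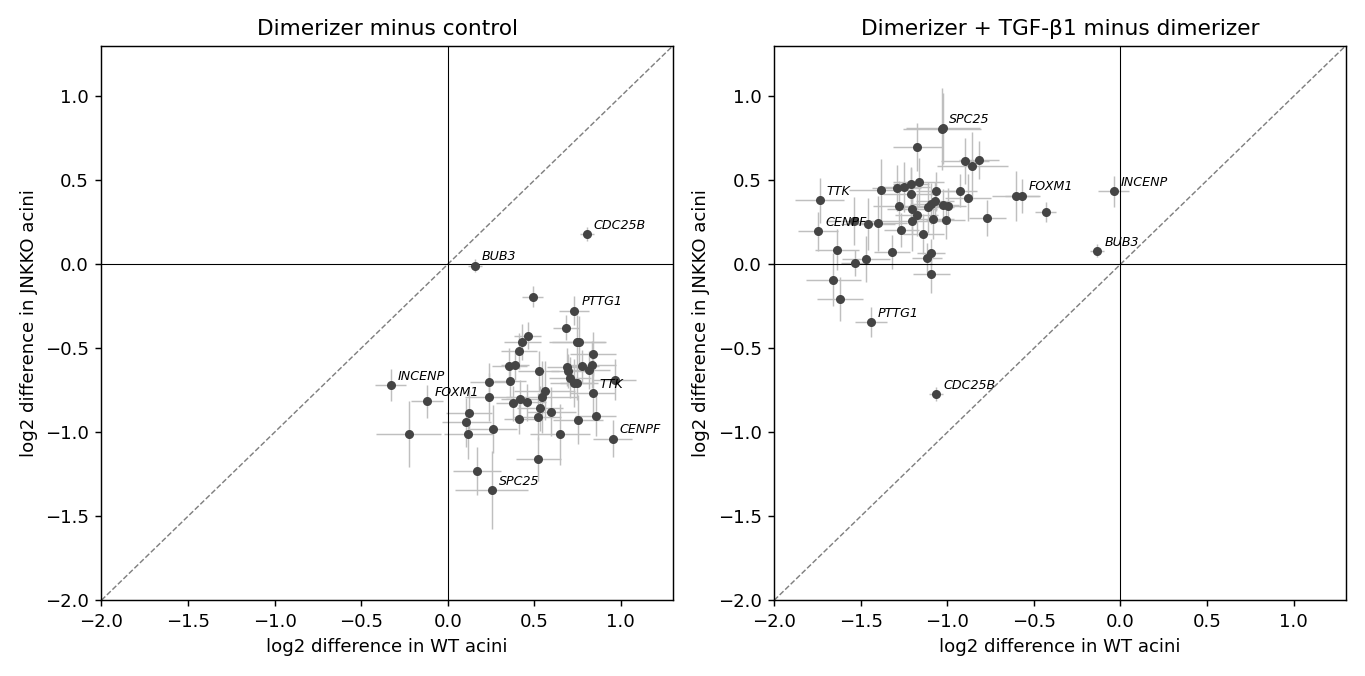
Log2 difference in JNKKO acini (vertical axis) against that in WT acini (horizontal axis) for each of the 50 genes, for dimerizer minus control (left) and for dimerizer with TGF-β1 minus dimerizer (right); bars are standard errors and the dashed line marks equal differences. On the left all 50 points lie below the dashed line, at a median of -0.71 in JNKKO and 0.52 in WT acini; on the right all 50 lie above it, at a median of 0.34 in JNKKO and -1.13 in WT acini.

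Adding TGF-β1 to dimerizer moved fewer genes in JNKKO acini, and mostly up. Against JNKKO dimerizer, 25 of the 50 genes rose and 2 fell, while 30.5% of all genes rose and 30.3% fell. The median log2 difference was 0.34 over the 50 genes and -0.01 over all genes. FOXM1 rose by 0.41 ± 0.10 (adjusted p = 0.00134), while MKI67 (0.33 ± 0.15, adjusted p = 0.0705) and TOP2A (0.09 ± 0.12, adjusted p = 0.572) did not pass. Of the cyclin and CDK genes CDK1 rose by 0.48 ± 0.10 (adjusted p = 0.000324) and CCNB1 by 0.38 ± 0.11 (adjusted p = 0.00893), whereas CDC25B fell by 0.77 ± 0.04 (adjusted p = 9.46e-16) on the log2 scale. Of 7 kinase and passenger genes 6 rose, with BIRC5 (survivin, a chromosomal passenger) at 0.70 ± 0.14 (adjusted p = 0.000438), AURKA, the centrosome kinase, at 0.35 ± 0.11 (adjusted p = 0.00733), AURKB at 0.49 ± 0.14 and INCENP at 0.43 ± 0.09 (adjusted p = 0.00041), and PLK1 (0.34 ± 0.15, adjusted p = 0.0682) did not pass.

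Of 5 checkpoint genes BUB1 (0.46 ± 0.15, adjusted p = 0.0128) and TTK (0.38 ± 0.14, adjusted p = 0.0174) rose. Of 8 kinetochore genes 5 rose, with CENPI, a centromere protein that helps place CENP-A, at 0.81 ± 0.21 (adjusted p = 0.00157), SPC25 at 0.81 ± 0.24 (adjusted p = 0.00508), NDC80, the microtubule-binding subunit, at 0.61 ± 0.14 (adjusted p = 0.000299) and the motor CENPE at 0.44 ± 0.10. CENPF at 0.20 ± 0.12 (adjusted p = 0.163) did not pass. Of 9 kinesins 3 rose, KIF23, a centralspindlin motor, by 0.62 ± 0.11 (adjusted p = 6.95e-05), and KIF11 (0.04 ± 0.09, adjusted p = 0.737) did not pass. Of 6 spindle and cytokinesis genes 4 rose. In the anaphase group CDCA3 was the gene that rose (0.41 ± 0.15, adjusted p = 0.0185), PTTG1 fell at -0.34 ± 0.09 (adjusted p = 0.00275), and CDC20 (0.24 ± 0.15, adjusted p = 0.202) and ESPL1 (-0.06 ± 0.11, adjusted p = 0.673) did not pass.

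This count depended on 1 library and on the unit. Without JNKKO dimerizer replicate 2, the lowest of its group for 44 genes, 14 of the 50 rose. That share is below the 30.5% of all genes that rose in the fit of all 18 libraries. The calls of AURKA (adjusted p = 0.0521), BUB1 (0.0753), TTK (0.0851) and SPC25 (0.0678) were lost without that replicate. TTK was also lost without JNKKO dimerizer with TGF-β1 replicate 3 (adjusted p = 0.0676). TPX2, at 0.28 ± 0.11 (adjusted p = 0.0374), was lost without JNKKO dimerizer replicate 1 or 2 and without TGF-β1 replicate 1 or 2 (adjusted p between 0.0709 and 0.133). BUB3 at 0.08 ± 0.04 (adjusted p = 0.0792) passed without JNKKO dimerizer with TGF-β1 replicate 1 (adjusted p = 0.0239), and PLK1 without JNKKO dimerizer replicate 3 (adjusted p = 0.0452). On log2(TPM + 1) with limma, 43 rose and 1 fell, but there the median of all genes was itself at 0.16, and 47.6% of all genes rose and 15.6% fell. The excess of the 50 genes over that median was 0.33 on the TPM scale and 0.34 by counts. The mitochondrial share was 5.38% with TGF-β1 and 8.90% without. With those genes left out 30 of the 50 rose and 2 fell, while 5313 of all 16893 genes rose and 4947 fell. The fibroblast markers summed to between 115 and 144 TPM with TGF-β1 and between 11.8 and 18.6 TPM without, and their part was not tested.

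In WT acini, TGF-β1 added to dimerizer gave the largest median difference of the 7 comparisons between groups. Against WT dimerizer, 49 of the 50 genes fell and 0 rose, while 31.8% of all genes fell and 33.4% rose. Their median log2 difference was -1.13, against 0.00 for all genes. All 3 markers fell, with TOP2A at -1.64 ± 0.13 (adjusted p = 5.05e-08), MKI67 at -1.20 ± 0.15 (adjusted p = 7.31e-06) and FOXM1 at -0.57 ± 0.10 (adjusted p = 2.14e-05). All 6 cyclin and CDK genes fell by over 1, such as CDK1 at -1.21 ± 0.10 (adjusted p = 1.19e-09), CCNB1 at -1.07 ± 0.11 and CDC25B at -1.07 ± 0.04 (adjusted p = 4.61e-19). Of 7 kinase and passenger genes 6 fell, PLK1 at -1.11 ± 0.15 (adjusted p = 1.27e-05) and AURKB at -1.17 ± 0.15 (adjusted p = 4.32e-08) among them, and INCENP (-0.04 ± 0.09, adjusted p = 0.719) was the gene of the 50 that did not pass.

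All 5 checkpoint genes fell, with TTK at -1.74 ± 0.14 (adjusted p = 2.03e-11), MAD2L1, which binds and holds CDC20, at -1.53 ± 0.08 (adjusted p = 8.63e-16) and BUB3 at -0.14 ± 0.04 (adjusted p = 0.00295). On log2(TPM + 1) BUB3 was the 1 gene of the 50 that rose, by 0.19 (adjusted p = 0.0145, limma), where 42.3% of all genes rose, 21.7% fell and the median of all genes was at 0.11. All 8 kinetochore genes fell, CENPF by most of the 50 at -1.75 ± 0.12 (adjusted p = 1.1e-08). All 9 kinesins fell, with KIF15 at -1.66 ± 0.16 (adjusted p = 2.22e-10), KIF18A at -1.62 ± 0.13 and KIF11 at -1.12 ± 0.09. All 6 spindle and cytokinesis genes fell, from -0.43 ± 0.06 for ECT2 to -1.38 ± 0.18 for DLGAP5. All 6 anaphase and cohesion genes fell, with CDC20 at -1.46 ± 0.16 (adjusted p = 1.36e-06) and PTTG1 at -1.44 ± 0.09 (adjusted p = 3.31e-11). With each library left out in turn 49 genes fell, also without the library whose genotype tag contradicts its title. The mitochondrial share was 9.19% with TGF-β1 and 9.0% without. The summed level of the 7 fibroblast markers was between 164 and 208 TPM with TGF-β1 and between 13.7 and 14.6 TPM without, and its part in these differences was not tested.

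The interaction of genotype with TGF-β1 passed for all 50 genes, each with a higher TGF-β1 difference in JNKKO than in WT acini, while 14.1% of all genes passed in that direction and 18.8% in the other. Its median was 1.46 over the 50 genes and -0.02 over all genes. It was 2.12 ± 0.20 (adjusted p = 4.26e-09) for TTK, 1.94 ± 0.16 (adjusted p = 1.01e-06) for CENPF and 1.87 ± 0.20 (adjusted p = 2.72e-06) for BIRC5. SPC25 was at 1.84 ± 0.33 (adjusted p = 7.29e-05), CENPI at 1.83 ± 0.30 and DLGAP5 at 1.82 ± 0.26. INCENP was at 0.47 ± 0.13 (adjusted p = 0.00731) and CDC25B at 0.29 ± 0.06 (adjusted p = 0.000236), and BUB3 had the smallest value at 0.22 ± 0.05 (adjusted p = 0.00293). On log2(TPM + 1) 49 genes passed with a higher difference in JNKKO acini, as did 19.7% of all genes. The interactions with dimerizer and with TGF-β1 share the JNKKO dimerizer and WT dimerizer libraries, which enter them with opposite sign, so they are not independent of each other.

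Compared directly, JNKKO acini had higher levels than WT in control medium. In control, 45 of the 50 genes were higher in JNKKO and 0 lower, while 25.8% of all genes were higher and 23.5% lower. The median log2 difference was 0.68 over the 50 genes and 0.01 over all genes. KIF18A differed most at 1.07 ± 0.13 (adjusted p = 3.78e-08), followed by TOP2A at 1.05 ± 0.12 (adjusted p = 6.99e-06) and CENPF at 1.05 ± 0.11 (adjusted p = 3.71e-06). CCNB1 was higher by 0.61 ± 0.11, CDC25B by 0.71 ± 0.04 (adjusted p = 2.55e-14) and MKI67 by 0.64 ± 0.14 (adjusted p = 0.00161). FOXM1 (0.19 ± 0.09, adjusted p = 0.104), INCENP (-0.03 ± 0.09, adjusted p = 0.804), BUB3 (0.07 ± 0.04, adjusted p = 0.139), SPC24 (0.36 ± 0.18) and SPC25 (0.44 ± 0.21) did not pass. Without WT control replicate 2, FOXM1 passed at 0.33 (adjusted p = 0.00183), and without WT control replicate 1, AURKB, otherwise at 0.46 ± 0.13 (adjusted p = 0.00453), did not (adjusted p = 0.0558). The mitochondrial share was 10.8% in JNKKO control and 15.2% in WT control acini, and with those genes left out 45 were again higher.

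With dimerizer the order of the genotypes turned round. In dimerizer acini, 47 of the 50 genes were lower in JNKKO and 0 higher, while 18.5% of all genes were lower and 21.6% higher. Their median log2 difference was -0.56, against 0.00 for all genes. SPC25 differed most at -1.16 ± 0.23 (adjusted p = 0.000186), followed by CENPF at -0.94 ± 0.11 (adjusted p = 1.54e-05) and DLGAP5 at -0.94 ± 0.18 (adjusted p = 0.000507). MKI67 was at -0.76 ± 0.14 (adjusted p = 0.000903), CCNB1 at -0.67 ± 0.11 (adjusted p = 0.000149) and INCENP at -0.42 ± 0.09 (adjusted p = 0.000952). CDC25B (0.09 ± 0.04, adjusted p = 0.0879), BUB3 (-0.09 ± 0.04, adjusted p = 0.0533) and SPC24 (-0.43 ± 0.20, adjusted p = 0.0958) did not pass. Without WT dimerizer replicate 1 BUB3 passed at -0.11 (adjusted p = 0.0476), as it did without JNKKO dimerizer replicate 2 (adjusted p = 0.0398). TPX2 passed narrowly at -0.29 ± 0.11 (adjusted p = 0.0395) and was lost without either of 2 libraries in each group, at adjusted p between 0.0778 and 0.141. The mitochondrial shares of these groups were close, 8.90% in JNKKO and 9.0% in WT dimerizer acini.

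With dimerizer and TGF-β1 the genes were again higher in JNKKO acini. There 49 of the 50 genes were higher in JNKKO and 0 lower, while 26.5% of all genes were higher and 26.4% lower. The median log2 difference was 0.85 over the 50 genes and 0.00 over all genes. TTK differed most at 1.35 ± 0.15 (adjusted p = 1.46e-08), followed by MAD2L1 at 1.26 ± 0.08 (adjusted p = 5.47e-13) and NUF2, a partner of NDC80, at 1.23 ± 0.16 (adjusted p = 1.57e-07). CDK1 was higher by 1.13 ± 0.11 (adjusted p = 1.14e-08), CDC20 by 1.03 ± 0.16 (adjusted p = 0.000109) and CDC25B by 0.38 ± 0.04 (adjusted p = 1.09e-08), and INCENP (0.05 ± 0.09, adjusted p = 0.65) was the gene that did not pass. BUB3 was higher at 0.12 ± 0.04 (adjusted p = 0.01) by counts and lower at -0.27 (adjusted p = 0.00162, limma) on log2(TPM + 1), where 29.6% of all genes were lower and 20.6% higher, so its direction depends on the unit. By counts its call was lost without WT TGF-β1 replicate 1 (adjusted p = 0.061) and without JNKKO TGF-β1 replicate 3 (adjusted p = 0.063). The mitochondrial share was 5.38% in JNKKO and 9.19% in WT acini, and with those genes left out 49 were again higher. The genotype comparisons use the same libraries as the treatment comparisons above, so they restate the 6 group levels and are no separate evidence. Of the counts of 0 by edgeR's test in the comparisons above, that of genes higher in JNKKO dimerizer acini became 1 (CDC25B) at an unadjusted p under 0.05. The others, of genes that rose with TGF-β1 in WT acini and of genes lower in JNKKO control or TGF-β1 acini, stayed at 0, and by DESeq2 all were 0.

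**Figure D5:**
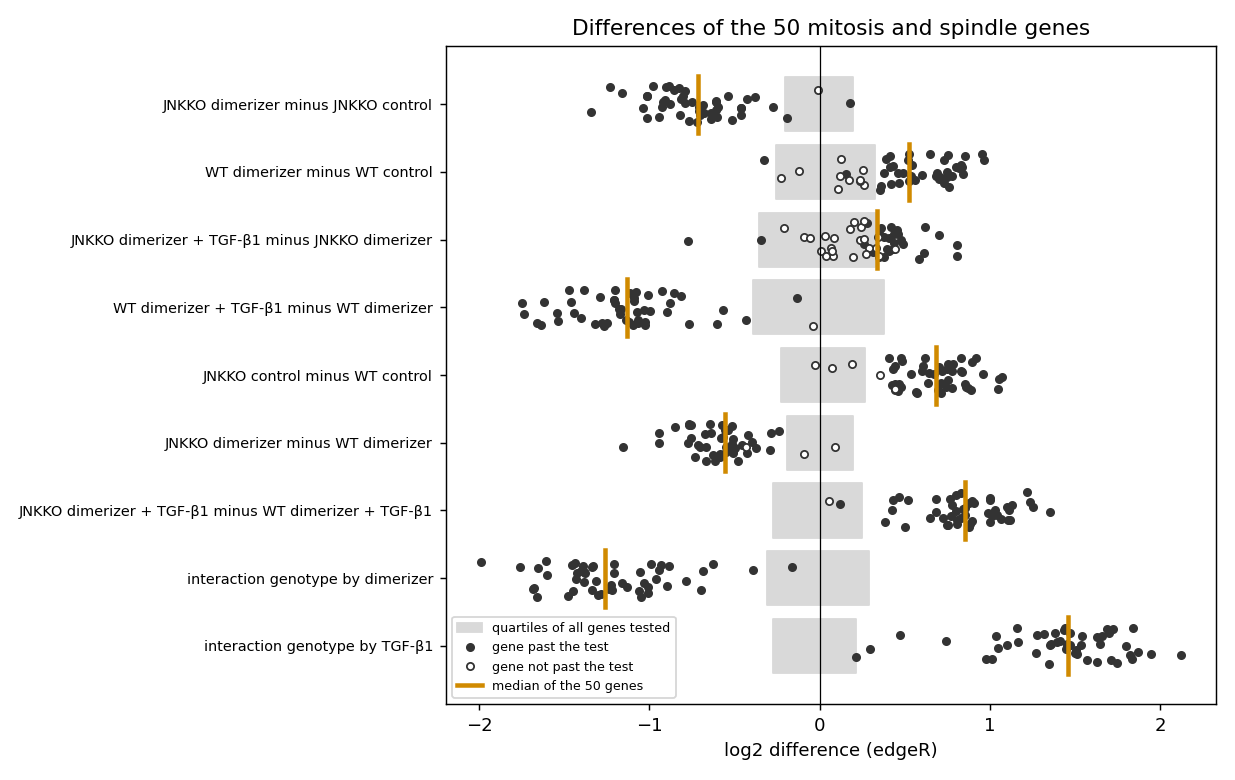
Log2 differences of the 50 genes (horizontal axis) in the 9 comparisons (rows, 7 named as first group minus second and 2 interactions); filled points passed the test, open points did not, the orange bar is the median of the 50 genes and the gray band the range between the quartiles of all 16911 genes tested. The bar lies at -0.71 for dimerizer in JNKKO and 0.52 in WT acini, and at 0.34 for TGF-β1 in JNKKO and -1.13 in WT acini.

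The 50 genes moved closely together over the 18 libraries. Of them 38 had a Pearson r of at least 0.9 with the mean of the other 49, and the median r was 0.948; these values describe libraries that share 6 group means and carry no test. Below 0.7 were CDC25B (0.639), BUB3 (0.531) and INCENP (0.403). The 5 genes outside the set with the highest r to the mean of the 50 were NCAPG, a condensin subunit (0.982), CDCA2, a mitotic phosphatase regulator (0.979), CIT, the citron kinase of cytokinesis (0.972), SKA3, a kinetochore protein (0.969), and PSRC1, a spindle microtubule protein (0.968). NCAPG was at 20.8, 21.1 and 18.1 CPM in JNKKO control, 10.9, 10.2 and 12.04 CPM in JNKKO dimerizer and 13.3, 13.1 and 13.2 CPM in JNKKO dimerizer with TGF-β1 acini. In WT acini NCAPG was at 11.2, 15.4 and 12.99 CPM in control, 17.6, 19.1 and 16.1 CPM with dimerizer, and 8.01, 8.09 and 7.68 CPM with dimerizer and TGF-β1. It thus had the layout of CCNB1 within each genotype.

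Other lists of the mitotic pathway, also chosen with earlier results known, were counted the same way. Their counts stand against shares over all genes of 17.9% lower and 22.5% higher with dimerizer in JNKKO acini, 30.3% higher and 25.6% lower with dimerizer in WT acini, 30.5% higher and 30.3% lower with TGF-β1 in JNKKO acini, and 33.4% higher and 31.8% lower with TGF-β1 in WT acini. Of 35 other spindle, centrosome and cytokinesis genes, 28 fell and 1 rose with dimerizer in JNKKO acini and 22 rose and 4 fell in WT acini, and with TGF-β1 16 rose and 4 fell in JNKKO and 3 rose and 32 fell in WT acini. The list's median with dimerizer was -0.50 in JNKKO and 0.30 in WT acini, where the medians of all genes were 0.01 and 0.03. FAM83D, a spindle-positioning protein, fell by 1.61 ± 0.13 on the log2 scale with dimerizer in JNKKO acini, and CKAP2L, a spindle-pole protein, rose by 0.98 ± 0.12 in WT acini. NUMA1 fell with dimerizer in both genotypes, at -0.33 ± 0.03 in JNKKO and -0.74 ± 0.03 in WT acini. Of 35 other kinetochore and centromere genes, 19 fell and 1 rose with dimerizer in JNKKO and 18 rose and 6 fell in WT acini, at medians of -0.32 and 0.22. CASC5 (the KNL1 scaffold) was at -0.73 ± 0.10 in JNKKO and 0.91 ± 0.10 in WT acini. CENPT (-0.41 ± 0.05) and MAD1L1 (-0.47 ± 0.06) fell with dimerizer in WT acini. Of 17 condensin and cohesin genes, 14 fell and 1 rose in JNKKO and 8 rose and 3 fell in WT acini, at medians of -0.28 and 0.10, with SMC4, a condensin core subunit, at -0.60 ± 0.05 in JNKKO acini.

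Of 17 genes of the anaphase-promoting complex and its regulators, 2 fell and 1 rose with dimerizer in JNKKO acini and 6 rose and 5 fell in WT acini, at medians of -0.01 and 0.08. The WT shares of that list, 35.3% higher and 29.4% lower, were near those of all genes, and the JNKKO shares were below them. Of 36 genes of DNA replication and S phase, 29 fell with dimerizer in JNKKO, and 12 rose and 2 fell in WT acini, at medians of -0.42 and 0.19. The 33.3% that rose in WT acini was near the share over all genes. TYMS, the thymidylate synthase, was at -0.66 ± 0.06 (adjusted p = 4.43e-10) in JNKKO and 0.55 ± 0.06 (adjusted p = 2.96e-09) in WT acini. With TGF-β1, 10 of the 36 rose and 7 fell in JNKKO acini, both below the shares over all genes, and 31 fell in WT acini, CDT1, the replication licensing factor, falling in both (-1.15 ± 0.11 in JNKKO and -1.90 ± 0.12 in WT acini). Of 19 MuvB, E2F and pocket protein genes, 8 fell and 2 rose with dimerizer in JNKKO acini, with MYBL2 (B-MYB) at -1.44 ± 0.13 (adjusted p = 1.16e-08), and 8 rose and 4 fell in WT acini, with E2F3 at 0.79 ± 0.06 (adjusted p = 7.16e-12). The medians of that list were -0.11 in JNKKO and 0.07 in WT acini.

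Of 19 tested genes that control entry into mitosis, 10 fell and 3 rose with dimerizer in JNKKO acini and 7 rose and 10 fell in WT acini, at medians of -0.21 and -0.09. The CDK inhibitor gene CDKN1A (p21) was higher with dimerizer in JNKKO acini, at 0.53 ± 0.04 (adjusted p = 3.9e-12), and lower with it in WT acini, at -0.40 ± 0.04 (adjusted p = 3.62e-10). With TGF-β1 it was higher in both genotypes, at 0.77 ± 0.04 (adjusted p = 1.13e-16) in JNKKO and 0.87 ± 0.04 (adjusted p = 5.13e-18) in WT acini. GADD45A, a stress-induced inhibitor of CDK1 activity, was at 1.19 ± 0.07 (adjusted p = 2.74e-10) with dimerizer in JNKKO acini and -0.37 ± 0.07 (adjusted p = 0.000286) with dimerizer in WT acini, and at 0.39 ± 0.07 (adjusted p = 7.05e-05) with TGF-β1 in JNKKO acini and 1.16 ± 0.07 (adjusted p = 4.82e-11) with TGF-β1 in WT acini. Its paralog GADD45B was at -0.32 ± 0.12 (adjusted p = 0.0336) with dimerizer in JNKKO acini and -2.28 ± 0.10 (adjusted p = 1.07e-15) with dimerizer in WT acini, and at 1.58 ± 0.10 (adjusted p = 1.15e-12) with TGF-β1 in JNKKO acini and 2.54 ± 0.10 (adjusted p = 2.31e-17) with TGF-β1 in WT acini. CDKN1A, GADD45A and GADD45B thus rose with TGF-β1 in both genotypes. The rise was smaller in JNKKO than in WT acini for GADD45A (interaction -0.77 ± 0.10, adjusted p = 7.07e-06). The same held for GADD45B (-0.96 ± 0.15, adjusted p = 1.72e-05), while the interaction of CDKN1A did not pass (-0.09 ± 0.05, adjusted p = 0.187). Any part of these genes in the differences of the 50 genes was not tested. CDKN1B (p27) fell with dimerizer in both genotypes, at -0.43 ± 0.05 in JNKKO and -0.54 ± 0.04 in WT acini, and with TGF-β1 it was at -0.34 ± 0.05 (adjusted p = 5.23e-07) in JNKKO and -0.10 ± 0.05 (adjusted p = 0.0646) in WT acini.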

How the data were processed

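Poly(A)-selected RNA from 18 libraries of MCF-10A.B2 acini was sequenced in pairs. The authors deposited a table of expected counts per gene and a table of TPM (transcript abundance scaled to length and depth) for all 18 libraries. Per the submitters' processing notes, cutadapt, RSEM and hg38 were used, without versions, annotation or strand setting. Of the 42141 genes, 41959 matched GENCODE 29 by transcript identifier, including all 50 members. Gene names that appeared altered (76, none of them a member) were then replaced by the GENCODE 29 name where there was a match.

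Libraries were grouped by their titles. Expected counts were rounded and fitted with edgeR 4.0.16 (R 4.3.3): TMM normalization, filterByExpr (16911 genes kept), 1 mean per group over all 18 libraries, quasi-likelihood F test with 12 residual degrees of freedom, Benjamini-Hochberg adjustment over the 16911 genes and a threshold of 0.05. Standard errors were obtained as the absolute log2 difference over √F. CPM are TMM-scaled and TPM were used for levels between genes. The common biological coefficient of variation was 4.47%. Totals of 24243537 to 34499651 counts per library set the counting error.

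The members and the gene lists were chosen with earlier results of these data known. Genes named are 21 leading members in every comparison, up to 6 called members with the largest rise and fall, up to 4 called against the main direction, up to 3 called genes per other list and the 5 genes outside the set most like it. A few others were named where a group count needed it. Alternatives were RLE size factors, no filter, DESeq2 1.42.0, limma 3.58.1 on log2(TPM + 1) or log2(TPM + 0.1), a replicate block, mitochondrial genes left out, only the compared groups and each library left out. Python 3.11.15 with pandas 2.3.3 and numpy 2.4.6 made summaries, and matplotlib 3.10.9 the figures.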

Additional observations from a re-analysis of the deposited data

Results flagged for a closer look

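The 2 genotypes differed in their response to dimerizer for 50 of the 50 genes, by the interaction term of edgeR's quasi-likelihood test over all genes. Each response was lower in JNKKO acini, while 21.2% of all genes passed in that direction and 21.4% in the other. The largest interactions (JNKKO difference minus WT difference, log2) were -1.99 for CENPF, -1.76 for TOP2A, -1.68 for KIF20A, -1.68 for KIF15, -1.66 for DLGAP5 and -1.65 for KIF18A. The response to TGF-β1 added to dimerizer likewise differed for 50 of the 50 genes, each higher in JNKKO acini. Over all genes 14.1% passed in that direction and 18.8% in the other. There the largest interactions were 2.12 for TTK, 1.94 for CENPF, 1.87 for BIRC5, 1.84 for SPC25, 1.83 for CENPI and 1.82 for DLGAP5. Both sets use the dimerizer libraries, so they are not independent.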

How the results depend on the processing

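RLE size factors, DESeq2, no filter, only the compared groups and leaving out mitochondrial genes kept every count of the 50 genes within 1.5 times of that reported. A replicate block gave, as higher and lower, 1 and 48 (dimerizer, JNKKO), 39 and 1 (dimerizer, WT), 26 and 2 (TGF-β1, JNKKO), 0 and 49 (TGF-β1, WT), 45 and 0, 0 and 48, and 49 and 0 (JNKKO against WT in control, dimerizer, and dimerizer with TGF-β1), and 50 for each interaction. Whether same-numbered libraries were paired is not known. Their deviations from the group means over the tested genes were little correlated (r from -0.0624 to 0.0767 over 45 pairs, 8 of 18 libraries best with their own number). A low r cannot exclude that such libraries share a culture. On log2(TPM + 1), log2(TPM + 0.1) and log2(TPM + 1) without a filter, dimerizer in JNKKO raised 0 genes in each, dimerizer in WT lowered 1, 0 and 0, TGF-β1 in JNKKO raised 43, 43 and 42 and lowered 1, 1 and 1, TGF-β1 in WT raised 1, and JNKKO against WT with TGF-β1 had 1 lower (BUB3 in both). Over all genes the higher and lower calls on log2(TPM + 1) were 8046 and 2631 for TGF-β1 in JNKKO (5154 and 5117 by counts), 7150 and 3664 in WT, 6250 and 2814 for dimerizer in WT, 1773 and 5425 for JNKKO against WT with dimerizer, and 2078 and 4886 and 3332 and 1958 for the interactions. TPM turned the direction of ESPL1 for TGF-β1 in JNKKO (0.13, 0.19 and 0.13), where KIF15 (-0.09 by counts, 0.10 on log2(TPM + 1)) and KIF18A (-0.21 and 0.02) also turned and passed in neither, and of BUB3 (0.19, 0.19 and 0.19) and INCENP (0.13, 0.14 and 0.13) for TGF-β1 in WT, and of JNKKO against WT for BUB3 in control (-0.059, -0.059 and -0.059) and with TGF-β1 (-0.27, -0.27 and -0.27) and for CDC25B with dimerizer (-0.065, -0.066 and -0.065). Leaving out 1 library, TGF-β1 in JNKKO raised 14 to 27 genes and dimerizer in WT lowered 1 to 2. Differences that then crossed 0 ranged, for dimerizer, from -0.024 to 0.012 (BUB3, JNKKO), -0.22 to 0.028 (FOXM1, WT), -0.050 to 0.23 (PLK1, WT), -0.021 to 0.21 (AURKB, WT) and -0.012 to 0.24 (CDC20, WT). They ranged from -0.033 to 0.078 (KIF11, JNKKO), -0.20 to 0.094 (ESPL1, JNKKO) and -0.088 to 0.024 (INCENP, WT) for TGF-β1, and from -0.12 to 0.059 for INCENP in JNKKO against WT control. None of these passed the test except FOXM1 at -0.22. The cause of these shifts was not tested.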
